A study of Mus musculus with 26 samples.

Results

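The Cyp2a cytochromes are 4 mouse genes, Cyp2a4, Cyp2a5, Cyp2a12 and Cyp2a22, and their transcripts were followed through 26 RNA sequencing libraries of mouse liver and hepatocytes. They were chosen by gene symbol, and make up 4 of the 47643 gene rows of the count table. The study addressed drug metabolism in livers with impaired bile flow. All 4 genes passed the filter on low counts in each of the 5 comparisons, in some of them only through the group where they were high.

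Cytochrome P450 enzymes sit in the endoplasmic reticulum of hepatocytes and oxidise drugs, steroids and environmental chemicals, with electrons handed over by P450 reductase. Cyp2a5 is the main coumarin hydroxylase of mouse liver and also oxidises nicotine. Cyp2a4 hydroxylates testosterone and is known as an enzyme that female mouse liver makes in larger amounts than male liver. Cyp2a12 is also a steroid hydroxylase, and no role is given here for Cyp2a22.

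The libraries form 10 groups in 5 experiments. Mice of 4 experiments were C57BL/6J. Wild-type mice were compared with Fxr-/- Shp-/- mice at 12 weeks of age, fed ad libitum (3 libraries each); Fxr (gene Nr1h4) is the bile acid receptor and Shp (gene Nr0b2) a repressor that it induces. Mice with floxed alleles of both genes, labelled fl/fl Fxr fl/fl Shp, received chow or a cholic acid diet at 10 to 12 weeks with a fast of 8 to 10 h (3 libraries each). No Cre driver is named for them, and both diet groups carry the floxed alleles. Isolated hepatocytes came from wild-type mice of 16 weeks on chow or a 60% high fat diet after a fast of 10 h (2 libraries each). Livers of C3H/HeN mice aged 8 to 10 weeks, with no genotype given and fed ad libitum, were taken 48 h after partial hepatectomy (PHx) or at 0 h from sham-operated mice (3 libraries each). Time after surgery and the removal of tissue cannot be told apart in that design. Wild-type mice of 8 weeks, fed ad libitum, received corn oil or TCPOBOP, an agonist of the xenobiotic receptor CAR (2 libraries each). The labels of the TCPOBOP samples disagree on the time after injection, with 36 h in the titles and 6 h in the source names. Samples were whole liver in every experiment except that of the hepatocytes.

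Reads counted to genes ranged from 13949059 to 70367874 per library. Every library had at most 8 counts of Xist and at least 779 counts of the Y-linked Ddx3y, while the labels give no sex. Nr0b2 had 226 to 446 counts in wild type and 13 to 39 in the knockout, and Nr1h4 had 1941 to 2846 and 1198 to 1421. Nothing in the labels says that replicates came from separate mice, so p-values measure the spread between these samples, which may be technical. In whole liver, fewer cells of a type and less RNA per cell cannot be told apart. The hepatocyte markers Alb, Apoa1, Ttr, Cps1 and Hnf4a summed to at least 43198.5 CPM (CPM is the read count scaled to library size, on a scale common to all libraries) in every library.

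The genes lie within a cluster of Cyp2 genes on chromosome 7 (GRCm38, GENCODE M21), and each has 9 exons in its main transcript. Cyp2a4 (ENSMUSG00000074254.4) spans chr7:26307169-26315088 on the plus strand and is next to Cyp2b9. Cyp2a5 (ENSMUSG00000005547.14) spans chr7:26835305-26843548 on the plus strand, beside Cyp2g1. Cyp2a22 (ENSMUSG00000091867.2) spans chr7:26931631-26939384 on the minus strand, inside the span of the pseudogene Cyp2a21-ps, with 0 exon bases in common with that pseudogene's exons. Cyp2a12 (ENSMUSG00000060407.6) spans chr7:27029081-27037375 on the plus strand, followed by Cyp2f2.

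The family consists of 2 near-identical pairs. The coding sequences of Cyp2a4 and Cyp2a5 differ at 23 of 1482 bases (98.4% identity), and those of Cyp2a12 and Cyp2a22 at 45 of 1476 bases (97.0%). Identity across the pairs was 75.5% to 76.9%. Because a read is assigned to a member through these few differing bases, a stretch of 90 coding bases is shown for each gene from GENCODE M21, with capitals at the bases that differ from the partner. The Cyp2a4 and Cyp2a5 stretch covers coding bases 580 to 669 and holds 5 differences, and the Cyp2a12 and Cyp2a22 stretch covers bases 1294 to 1383 and holds 8.
Cyp2a4: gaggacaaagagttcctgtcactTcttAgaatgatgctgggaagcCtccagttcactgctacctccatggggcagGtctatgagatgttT
Cyp2a5: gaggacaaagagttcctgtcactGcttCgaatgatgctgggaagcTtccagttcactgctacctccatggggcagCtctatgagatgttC
Cyp2a12: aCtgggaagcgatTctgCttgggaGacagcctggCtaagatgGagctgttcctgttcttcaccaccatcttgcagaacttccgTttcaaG
Cyp2a22: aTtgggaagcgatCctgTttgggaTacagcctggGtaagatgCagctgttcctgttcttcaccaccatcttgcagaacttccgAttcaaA

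The longest run without a difference was 216 coding bases in the first pair and 206 in the second. Of the windows of 50 bases along the main transcript, 62.0% of those of Cyp2a4 and 59.2% of those of Cyp2a5 occur in no other annotated transcript, and 72.5% and 74.3% of those of Cyp2a12 and Cyp2a22. At 100 bases these shares were 88.8%, 85.6%, 93.2% and 93.6%. The read length is not given in the sources used here. Each member's level is therefore uncertain by the reads that its partner could have taken or that were discarded as not unique, so the Cyp2a4 and Cyp2a5 counts are also given as a sum. The pseudogene Cyp2a21-ps, which shares windows with Cyp2a4 and Cyp2a5, had at most 25 counts in any library.

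The promoters of the first pair are as alike as the coding sequences. A stretch of 200 bases upstream of Cyp2a4 and Cyp2a5 (RefSeq, GRCm38.p6, plus strand, chr7:26306959-26307158 and chr7:26835105-26835304) is shown because the levels of these 2 genes were far apart while the sequences differ at 4 bases, which are in capitals.
Cyp2a4: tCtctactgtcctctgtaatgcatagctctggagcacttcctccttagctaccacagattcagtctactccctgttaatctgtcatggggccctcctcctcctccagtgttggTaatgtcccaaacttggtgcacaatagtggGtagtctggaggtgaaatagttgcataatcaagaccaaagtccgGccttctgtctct
Cyp2a5: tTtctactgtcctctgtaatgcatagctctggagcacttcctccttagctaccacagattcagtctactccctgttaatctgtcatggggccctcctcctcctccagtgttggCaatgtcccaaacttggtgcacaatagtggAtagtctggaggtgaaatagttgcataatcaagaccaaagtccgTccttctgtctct

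Motifs were searched on both strands of the 250 bases before each RefSeq start. The letters CAAAGTCC, of the kind that HNF4 binds, were found in the Cyp2a4 and Cyp2a5 windows and in 1.20% of 32851 mouse promoters. TTGCNNAA, of the C/EBP kind, was found in the same 2 windows and in 9.56% of promoters, and so was GTTAAT, a part of HNF1 sites, at 6.43%. The windows of Cyp2a12 and Cyp2a22, which are identical at 215 of 239 aligned bases, held none of these 3. TATAAA was found in all 4 windows and in 12.4% of promoters. TGACNNNGC, of the Nrf2 kind, and the half-site AGGTCA repeated with 4 bases between, a direct repeat of the CAR kind, were in none of the 4 windows, against 10.2% and 0.0152% of promoters.

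Cyp2a5 and Cyp2a12 were the abundant members, and Cyp2a4 and Cyp2a22 varied most between groups. Levels are compared between genes per kb of transcript. In wild-type liver, Cyp2a5 stood at 590.1 ± 99.0 CPM per kb and Cyp2a12 at 260.4 ± 13.3, against 0.355 ± 0.0540 for Cyp2a4 and 0.0934 ± 0.0243 for Cyp2a22 (SD, n = 3). In Fxr-/- Shp-/- liver the levels were 1562 ± 354 for Cyp2a5, 314 ± 17.4 for Cyp2a12, 149 ± 38.0 for Cyp2a4 and 67.5 ± 28.9 for Cyp2a22 (SD, n = 3). In high fat hepatocytes Cyp2a12, at 584 ± 30.3 CPM per kb, was above Cyp2a5, at 134 ± 26.8 (SD, n = 2). Group means had the same order in chow hepatocytes, at 439 ± 23.6 against 275 ± 108 (SD, n = 2). They also had it in floxed mice on chow, at 363 ± 65.2 against 249 ± 99.8 (SD, n = 3). After hepatectomy they were 340 ± 35.9 against 190 ± 24.6 (SD, n = 3). In the corn oil, TCPOBOP, sham and cholic acid groups the mean of Cyp2a5 was the higher.

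Across the 10 groups, mean Cyp2a4 went from 0.165 ± 0.0791 CPM in floxed mice on chow to 259.8 ± 66.1 CPM in the knockout (SD, n = 3). The knockout range lay above that of every other group, and the ranges of all other neighbours in the order overlapped. Mean Cyp2a22 went from 0.168 ± 0.0437 CPM in wild type up to 121 ± 51.9 CPM in Fxr-/- Shp-/- liver (SD, n = 3), with high fat hepatocytes next at 38.6 ± 6.54 CPM (SD, n = 2). Those 2 groups stood apart from each other and from the rest. Mean Cyp2a5 spanned 270.6 ± 54.0 CPM (SD, n = 2) in high fat hepatocytes to 3144 ± 712 CPM (SD, n = 3) in the knockout, and the knockout and cholic acid ranges overlapped. Cyp2a12 was the steadiest, from 438 ± 22.4 CPM (SD, n = 3) in wild type to 982 ± 51.0 CPM (SD, n = 2) in high fat hepatocytes. These orders run across experiments that differ in strain, age, feeding and tissue.

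**Figure D1:**
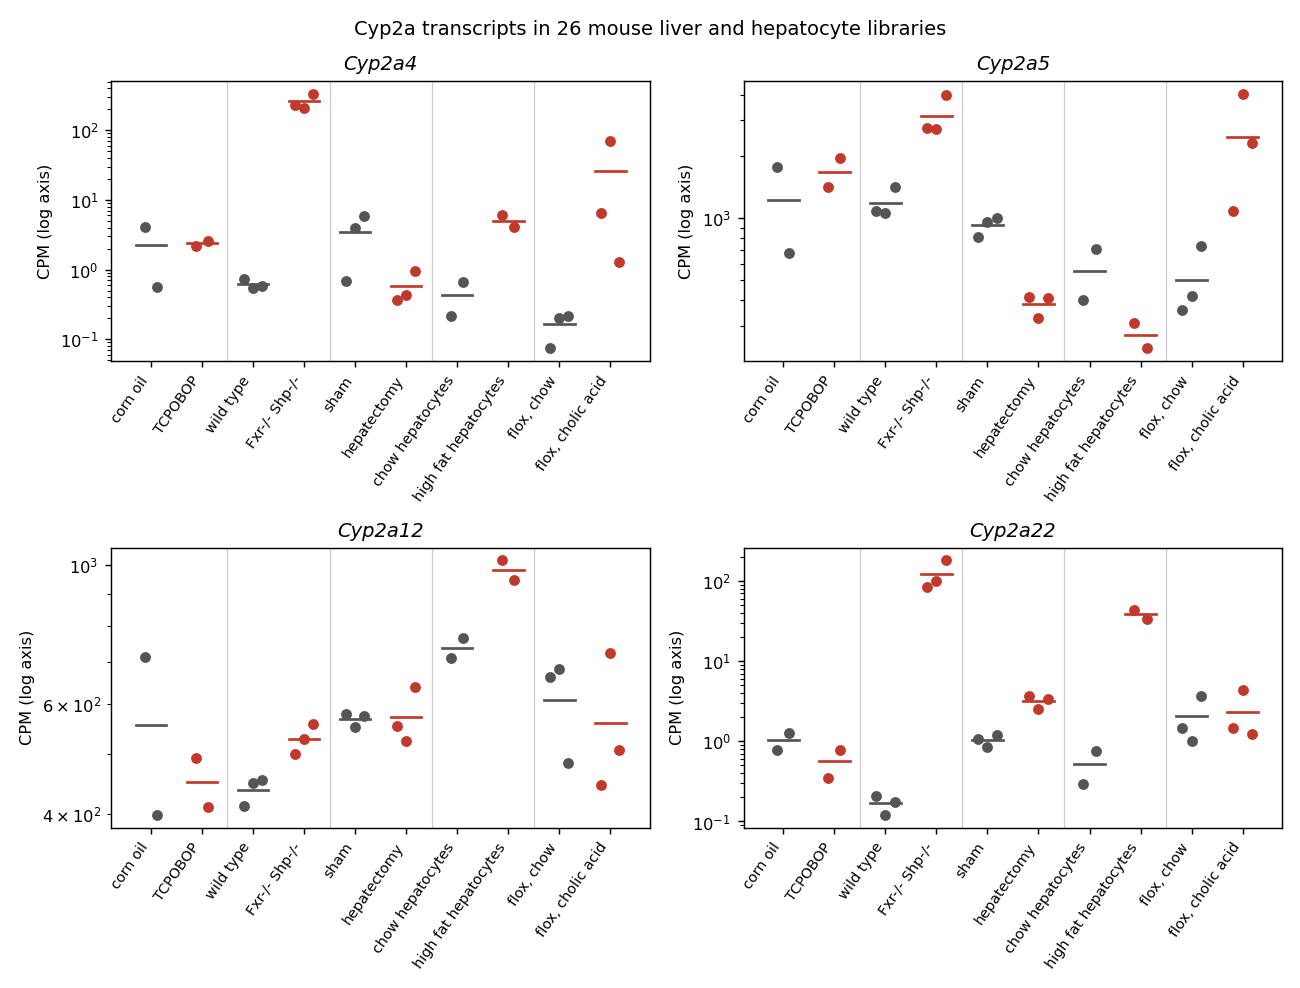
Levels of the 4 Cyp2a genes in CPM (log axis, a separate scale for each gene) in the 26 libraries of 10 groups; each point is a library, the horizontal line is the group mean, controls are grey and treated groups red. Cyp2a4 and Cyp2a22 are highest in the 3 Fxr-/- Shp-/- libraries, at 210.1 to 335 and 83.6 to 180.3 CPM.

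The Fxr-/- Shp-/- comparison asks what the loss of the bile acid receptor and its repressor does to these genes. All 4 members rose, where 40.4% of the genes tested changed, 21% up and 19.4% down (edgeR's quasi-likelihood test, adjusted p under 0.05). Cyp2a22 passed the filter only through the knockout libraries, with 0 of 3 wild-type libraries over its limit, so it could be tested only because it was high there. The scarce members rose by far more than the abundant members.

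In wild type, Cyp2a4 was read 14, 9 and 10 times (0.722, 0.542 and 0.588 CPM), against 5416, 4763 and 8190 times in the knockout (234, 210.1 and 335 CPM). Every knockout library was far above every wild-type library. The log2 fold change was 8.71 ± 0.26 (SE; edgeR adjusted p 1.86e-07). The ratio of pooled reads was 420.1, with a 95% interval of 299 to 611 for counting error only.

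Cyp2a22 behaved similarly from a lower start, with 4, 2 and 3 counts in wild type (0.206, 0.120 and 0.176 CPM) and 1930, 2257 and 4411 counts in the knockout (83.6, 99.6 and 180.3 CPM). The groups did not overlap. Its log2 fold change was 9.45 ± 0.47 (SE; edgeR adjusted p 2.60e-06). With so few control reads, the ratio of pooled reads was 721 with a 95% counting interval of 380 to 1577.

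Cyp2a5, already abundant, went from 1083, 1063 and 1418 CPM to 2751, 2716 and 3966 CPM. The 3 knockout libraries were above the 3 wild-type libraries. It rose by 1.43 ± 0.18 on the log2 scale (SE; edgeR adjusted p 0.000491), and Cyp2a4 and Cyp2a5 as a sum rose by 1.54 ± 0.18 (SE; edgeR adjusted p 0.000342). Cyp2a12 stood at 412, 448 and 453 CPM without the deletions and at 499, 528 and 558 CPM with them. These groups did not overlap either, and the log2 fold change was 0.29 ± 0.10 (SE; edgeR adjusted p 0.0382). The Cyp2a12 call was lost when any of the 3 wild-type libraries or knockout library 1 or 2 was left out (log2 fold changes of 0.25 to 0.33, edgeR adjusted p 0.0602 to 0.157). The 4 genes together summed to 4053 ± 853 CPM in knockout liver, against 1626 ± 212 CPM (SD, n = 3).

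Reads mapped to more than 1 place, which HTSeq leaves uncounted, were 43.6% ± 0.481 of reads in wild type and 26.4% ± 0.738 in the knockout (SD, n = 3). That was the widest gap of the 5 experiments. The share was 17.1% ± 0.520 on cholic acid against 24.3% ± 0.713 (SD, n = 3). In high fat hepatocytes it was 19.2% ± 0.213 against 24.2% ± 0.519 (SD, n = 2). After hepatectomy it was 19.4% ± 0.602 against 20.4% ± 0.302 (SD, n = 3), and the TCPOBOP and corn oil ranges overlapped. Knockout livers also held more reads of stellate and fibroblast markers, with 4 of 5 raised (summed levels 296 to 366 CPM against 142 to 232), and of bile duct markers, with 3 of 5 raised (11.9 to 19.3 CPM against 5.31 to 7.64), where 21% of all genes rose. In these lists 1 stellate marker and 3 bile duct markers passed the filter only through the knockout libraries. Of the endothelial markers 2 of 5 were raised (107 to 155 CPM against 58.6 to 110). Of the 2 leukocyte markers tested S100a8 was raised, by 5.07, and it passed the filter only through the knockout libraries. Of the macrophage markers Cd68 was raised and Marco lowered (1.54 and -1.70). Hepatocyte markers summed to 59550 to 79793 CPM against 81303 to 108819 CPM, with 2 of 5 lowered, Hnf4a at -0.78 and Apoa1 at -0.43, where 19.4% of all genes fell. Of 5 red cell markers Alas2 was lowered, at -1.42. The part of these measures in the Cyp2a results was not tested.

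Cholic acid, a primary bile acid, was fed to floxed mice. With it Nr0b2 stood at 43.5 to 91.3 CPM, against 14.7 to 18.6 CPM in controls, and Nr1h4 at 56.1 to 82.6 against 123 to 144 CPM. In these livers 1 of 4 members rose, Cyp2a5, where 4.77% of the genes tested changed, 2.27% up and 2.5% down. Cyp2a4 was higher in each of the 3 treated libraries, with a wide spread and no call; it passed the filter only through those libraries. Cyp2a12 and Cyp2a22 overlapped between the diets.

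Cyp2a5 had 358, 416 and 731 CPM on chow and 1082, 4037 and 2329 CPM on cholic acid. The lowest treated library was above the highest control. It rose by 2.31 ± 0.48 on the log2 scale (SE; edgeR adjusted p 0.0343). This call was lost without chow library 1 or 2 or cholic acid library 2 or 3 (log2 fold changes 2.11, 2.19, 1.77 and 2.36, edgeR adjusted p 0.0915, 0.130, 0.0870 and 0.0940).

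Cyp2a4 had 1, 3 and 3 counts on chow (0.0741, 0.203 and 0.217 CPM), at or below the floor of 3 counts. On cholic acid it had 128, 1316 and 27 counts (6.46, 70.9 and 1.29 CPM), so library 2 carried most of the group's reads. The log2 fold change was 7.23 ± 1.71 (SE; edgeR adjusted p 0.0527), and the ratio of pooled reads was 149 with a 95% counting interval of 72.1 to 371. Without cholic acid library 3 it was called, at 7.80 (edgeR adjusted p 0.0370); without library 2 it was 4.48 and not called (edgeR adjusted p 0.0541).

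Cyp2a12 had 663, 683 and 484 CPM on chow and 446, 723 and 507 CPM on cholic acid, a log2 fold change of -0.13 with a 95% interval of -0.66 to 0.41 (edgeR adjusted p 0.780). Cyp2a22 had 1.48, 1.02 and 3.70 CPM on chow and 1.46, 4.31 and 1.24 CPM on cholic acid, a log2 fold change of 0.18 with a 95% interval of -1.26 to 1.61 (edgeR adjusted p 0.895). The groups overlapped for both genes, and the interval of Cyp2a22, which had 15 to 80 counts per library, was wider than that of Cyp2a12.

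High fat diet moved the members of a pair in opposite directions in isolated hepatocytes. Cyp2a4, Cyp2a12 and Cyp2a22 rose and Cyp2a5 fell, so that 4 of 4 changed, where 24% of the genes tested changed, 12.9% up and 11.1% down. The largest rise was that of Cyp2a22.

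Cyp2a22 had 0.290 and 0.761 CPM in chow hepatocytes (15 and 44 counts) and 43.2 and 34.0 CPM in high fat hepatocytes (2881 and 2218 counts). The groups were far apart. It rose by 6.14 ± 0.34 on the log2 scale, a 70.5-fold change (SE; edgeR adjusted p 0.000910). Its size depended on the chow libraries, with 7.002 without chow library 2. Cyp2a4 rose from 0.213 and 0.657 CPM (11 and 38 counts) to 6.00 and 4.07 CPM (400 and 266 counts), again without overlap. Its log2 fold change was 3.48 ± 0.46, or 11.1-fold (SE; edgeR adjusted p 0.00828). It was 4.51 without chow library 2 and 2.91 without chow library 1, and in a fit of all 26 libraries it was 3.50 and not called (edgeR adjusted p 0.0679).

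Cyp2a5 had 399.6 and 706 CPM on chow and 309 and 232 CPM on high fat. Both treated libraries were below both controls, and the fall was 1.06 ± 0.28 on the log2 scale (SE; edgeR adjusted p 0.0429). Without high fat library 1 or 2 it was no longer called (log2 fold changes -1.27 and -0.88, edgeR adjusted p 0.0648 and 0.118). Cyp2a12 rose from 709.6 and 766 CPM to 1018 and 946 CPM, by 0.38 ± 0.09 on the log2 scale (SE; edgeR adjusted p 0.0329). That call was lost when any of the 4 libraries was left out (0.33 to 0.43, edgeR adjusted p 0.0583 to 0.131). The family sum was 1291 ± 257 CPM on chow and 1296 ± 113 CPM on high fat (SD, n = 2).

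The high fat preparations carried more reads of other liver cells. Endothelial markers were raised in 5 of 5 (94.7 to 97.8 CPM in sum against 37.9 to 39.8), macrophage markers in 4 of 5 (54.6 to 58.8 against 29.4 to 31.5) and stellate markers in 3 of 4 tested (22.9 to 24.9 against 7.02 to 10.5), where 12.9% of all genes rose. Of the stellate markers tested, 1 passed the filter only through the high fat libraries. Of the leukocyte markers, 1 could be tested, Ptprc, and it was raised. The hepatocyte markers summed to 91975 to 92558 CPM against 90010 to 93890 CPM, a sum mostly of Alb. Of these 5 markers 2 were lowered, where 11.1% of all genes fell, with log2 fold changes of -0.66 for Apoa1 and -0.68 for Hnf4a (edgeR adjusted p 0.0203 and 0.0233). The part of these cells in the Cyp2a results was not tested.

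Partial hepatectomy lowered Cyp2a5 and Cyp2a4 and raised Cyp2a22 at 48 h, so that 3 of 4 members changed, where 30.7% of the genes tested changed, 16.4% up and 14.3% down. Cyp2a12 did not pass the test.

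Cyp2a5 had 813, 963 and 997 CPM in sham livers and 412, 325 and 411 CPM after hepatectomy. The groups did not overlap, and it fell by 1.27 ± 0.13 on the log2 scale (SE; edgeR adjusted p 0.000274). Cyp2a4 had 0.677, 3.94 and 5.88 CPM in sham (21, 135 and 176 counts) and 0.370, 0.435 and 0.946 CPM after hepatectomy (13, 15 and 35 counts). The third treated library lay above the lowest sham library. The fall was 2.57 ± 0.72 on the log2 scale (SE; edgeR adjusted p 0.0293), and it was not called without sham library 2 or 3 or hepatectomy library 1 or 2 (-2.48, -1.98, -2.32 and -2.40, edgeR adjusted p 0.0838, 0.110, 0.0769 and 0.0900).

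Cyp2a22 rose from 1.06, 0.847 and 1.20 CPM (33, 29 and 36 counts) to 3.70, 2.52 and 3.38 CPM (130, 87 and 125 counts). The groups were apart, and the log2 fold change was 1.63 ± 0.24, or 3.09-fold (SE; edgeR adjusted p 0.00177). Cyp2a12 had 578, 552 and 575 CPM in sham and 552, 524 and 639.6 CPM after hepatectomy. Its log2 fold change was 0.01, with a 95% interval of -0.21 to 0.23 (edgeR adjusted p 0.946).

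Cell markers moved in this comparison too. Hepatocyte markers summed to 90126 to 101315 CPM after hepatectomy against 118446 to 124440 CPM in sham, with 2 of 5 lowered, Alb at -0.37 and Apoa1 at -0.29 on the log2 scale, where 14.3% of all genes fell. Of 5 markers each, 1 was raised for macrophages (Marco, 2.00), stellate cells (Col1a1, 0.95) and bile duct (Krt19, 0.88), near the 16.4% of all genes that rose. For endothelium 1 of 5 was lowered (Lyve1, -1.09), near the 14.3% that fell. The part of these measures in the Cyp2a results was not tested.

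**Figure D2:**
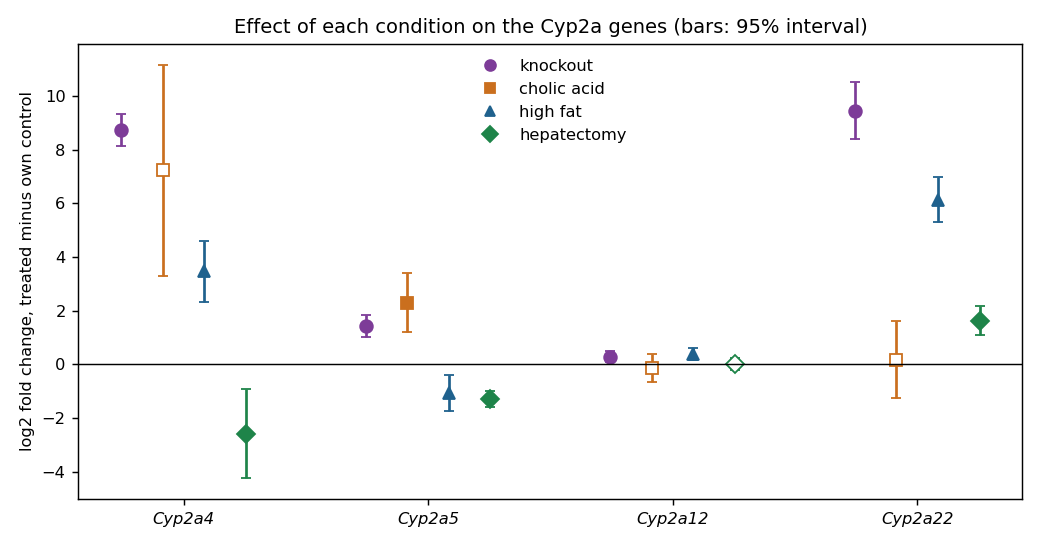
Log2 fold change of each Cyp2a gene, treated minus its own control, in the knockout, cholic acid, high fat and hepatectomy comparisons; bars are 95% intervals, filled symbols passed edgeR's test at an adjusted p under 0.05 and open symbols did not. Cyp2a4 and Cyp2a22 reach 8.71 and 9.45 in the knockout, while Cyp2a12 stays between -0.13 and 0.38.

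TCPOBOP was given to ask what CAR activation does. The library labelled corn oil 1 goes against its label: Cyp2b10, the standard CAR target, stood at 3672 CPM there, while corn oil 2 had 10.0 CPM and the TCPOBOP libraries 2976 to 3420 CPM. No direction is drawn from this comparison. In it, 0 of 4 members were called, where 0% of genes were called by edgeR (751 genes had an unadjusted p under 0.05, and DESeq2's Wald test called 109). The lowest unadjusted p of a member was 0.203, for Cyp2a22.

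TCPOBOP libraries held Cyp2a5 at 1417 and 1954 CPM, against 1773 in that labelled corn oil 1 and 679 in corn oil 2. For Cyp2a4 the levels were 2.21 and 2.55 CPM, against 4.02 and 0.556. In both genes the library labelled corn oil 2 was lowest, and that labelled corn oil 1 was within or above the treated range. The log2 fold changes were 0.45 ± 0.51 for Cyp2a5 and 0.04 ± 0.87 for Cyp2a4 (SE; edgeR adjusted p 0.960 and 0.996). Without the library labelled corn oil 1 they were 1.31 and 2.08, and without corn oil 2 they were -0.0788 and -0.77. The sign thus depended on which control was left out. Each of these refits rests on 1 control library, assumed to vary like the treated libraries. Cyp2a12 had 491 and 411 CPM with TCPOBOP, against 714 and 399 in the corn oil group, and Cyp2a22 had 0.348 and 0.790 CPM against 0.772 and 1.28. Their log2 fold changes were -0.31 and -0.85 (edgeR adjusted p 0.947 and 0.931). They were 0.17 and -1.17 without the library labelled corn oil 1, and -0.67 and -0.45 without corn oil 2.

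The effects of the other 4 comparisons were tested against each other in 6 pairs, with edgeR and adjustment over all genes, and 13 of 24 differences were called. The knockout and hepatectomy effects differed in 3 of 4 members, where 31.5% of genes differed, and the knockout and high fat effects in 3 of 4, where 16.1% did. Hepatectomy and high fat differed in 2 of 4 (29.2% of genes), hepatectomy and cholic acid in 2 of 4 (13% of genes) and high fat and cholic acid in 2 of 4 (6.43% of genes). The knockout and cholic acid effects differed in 1 of 4, Cyp2a22, where 13.9% of genes differed.

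Cyp2a22 stood at 9.45 in the knockout and 0.18 on cholic acid, a difference of 9.28 ± 0.91 (SE; edgeR adjusted p 6.21e-05). For Cyp2a5 the knockout minus cholic acid difference was -0.88 ± 0.55 and for Cyp2a4 it was 1.47 ± 2.80 (SE; edgeR adjusted p 0.322 and 0.780), neither called and both with errors that leave room for large differences. Cyp2a12 came closest to a called difference between hepatectomy and high fat, at -0.39 ± 0.14 (SE; edgeR adjusted p 0.0530). With DESeq2 size factors that difference was called, at -0.41 (edgeR adjusted p 0.0445). Without hepatectomy library 3 it was called at -0.48, and the knockout minus hepatectomy difference of Cyp2a12 at 0.39 (edgeR adjusted p 0.00961 and 0.0310).

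Within each near-identical pair the scarce member gained a share of the reads where it rose. Cyp2a4 made up 0.0666%, 0.0509% and 0.0415% of Cyp2a4 and Cyp2a5 reads in the wild-type libraries and 7.85%, 7.18% and 7.78% in the knockout. The exact 95% interval (Clopper-Pearson, counting error only) of the highest wild-type library was 0.0364% to 0.112%. The groups did not overlap, and the exact two-sided permutation p was 0.1, the smallest that 3 against 3 can give.

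In high fat hepatocytes the Cyp2a4 share was 1.91% and 1.72% against 0.0533% and 0.0930% on chow, with an exact permutation p of 0.333, the smallest for 2 against 2. On cholic acid it was 0.594%, 1.73% and 0.0552% against 0.0207%, 0.0489% and 0.0297%, with the third treated library barely above the controls (exact permutation p 0.1). After hepatectomy it was 0.0898%, 0.133% and 0.230% against 0.0832%, 0.408% and 0.586% in sham, where the groups overlapped (exact permutation p 0.4). With TCPOBOP it was 0.155% and 0.130%, while corn oil 1 gave 0.226% and corn oil 2 gave 0.0818% (exact permutation p 1).

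Cyp2a22 made up 0.0501%, 0.0268% and 0.0389% of Cyp2a12 and Cyp2a22 reads in wild type and 14.3%, 15.9% and 24.4% in the knockout. It made up 0.0409% and 0.0993% in chow hepatocytes and 4.07% and 3.47% on high fat. After hepatectomy it was 0.665%, 0.479% and 0.525%, against 0.184%, 0.153% and 0.209% in sham. No overlap was seen in these 3 experiments. Floxed mice overlapped, with 0.149% to 0.759% in controls and 0.244% to 0.593% with cholic acid.

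**Figure D3:**
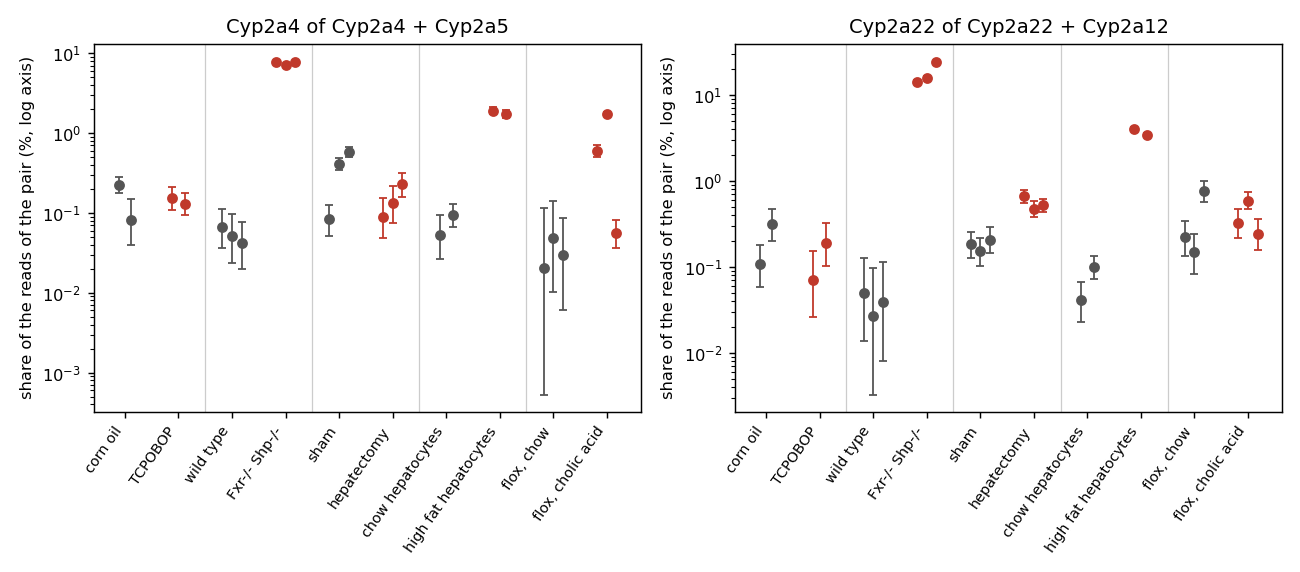
Share of reads taken by the scarce member of each near-identical pair (%, log axis) in the 26 libraries, with controls grey and treated groups red; points are libraries and bars are exact 95% binomial intervals for counting error. Cyp2a4 is at 7.18% to 7.85% in the knockout libraries and Cyp2a22 at 14.3% to 24.4%.

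The neighbours in the Cyp2 cluster were read from a list of 9 genes. In the knockout 5 of the 9 could be tested, 2 of them only through the knockout libraries; 4 rose and 1 fell, where 40.4% of all genes changed. Cyp2b9 and Cyp2b13, which lie on the Cyp2a4 side of the cluster and are known as female-biased, had 4 and 2 reads in all wild-type libraries together and 21633 and 7231 in the knockout. The ratios of pooled reads were 4082 and 2729, with 95% counting intervals of 1594 to 14982 and 755 to 22536 (edgeR adjusted p 4.39e-08 and 1.68e-06). Cyp2b10 rose by 2.87 ± 0.31 and Cyp2g1 by 1.31 ± 0.34 on the log2 scale (SE; edgeR adjusted p 0.000195 and 0.0154), and Cyp2f2, an enzyme of periportal hepatocytes beside Cyp2a12, fell by 1.23 ± 0.24 (SE; edgeR adjusted p 0.00407).

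On high fat, Cyp2b9 rose by 8.29 ± 0.51 and Cyp2b13 by 6.01 ± 0.89 on the log2 scale (SE; edgeR adjusted p 0.00123 and 0.0107). Cyp2b13 passed the filter only through the high fat libraries, with 2 reads in the chow libraries together. Its ratio of pooled reads was 73.0, with a 95% counting interval of 19.9 to 607. Cyp2b10 fell by 3.11 ± 0.41 and Cyp2g1 by 1.62 ± 0.28 (SE; edgeR adjusted p 0.00808 and 0.0163). Cyp2b9, Cyp2b13 and Cyp2b10 lie on the same side of Cyp2a4, and Cyp2g1 between Cyp2a4 and Cyp2a5, so genes on 1 side moved in different directions. Cyp2f2, on the far side beyond Cyp2a12, was not called, at 0.03 ± 0.15 (SE; edgeR adjusted p 0.910). After hepatectomy 2 of 5 fell, where 14.3% of all genes did, with log2 fold changes of -0.93 ± 0.09 for Cyp2f2 and -2.14 ± 0.39 for Cyp2g1 (SE; edgeR adjusted p 0.000244 and 0.00474). On cholic acid 4 genes were tested, 2 of them, Cyp2b9 included, only through the cholic acid libraries. The highest of the 4 was Cyp2b9, which had 0.0741, 0.407 and 0 CPM on chow and 0.555, 12.1 and 1.24 CPM on cholic acid. Cyp2b9 was not called (edgeR adjusted p 0.0965), and library 2 was its highest, as for Cyp2a4.

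**Figure D4:**
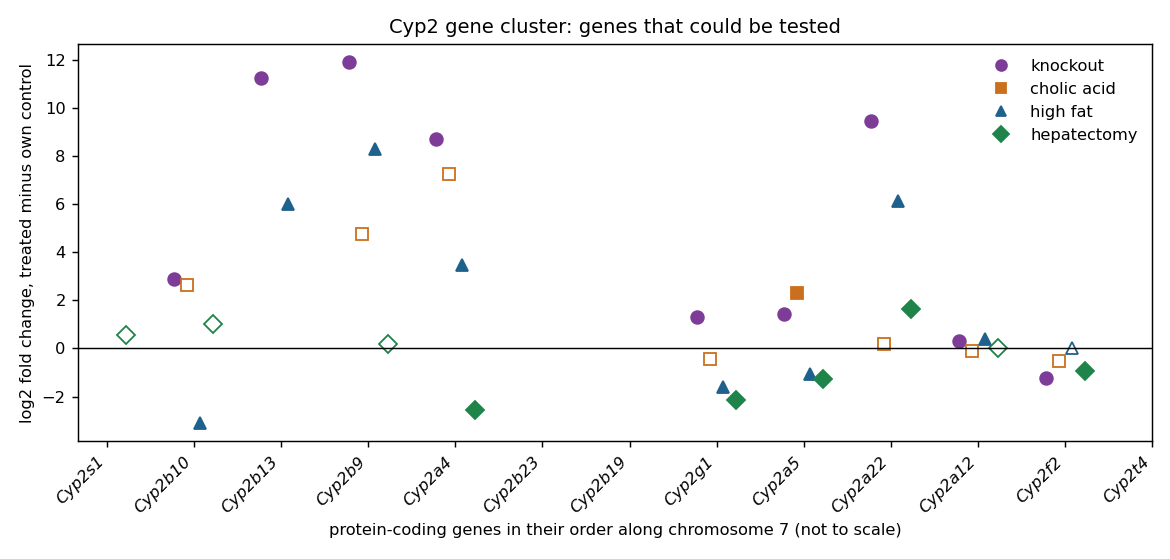
Log2 fold change, treated minus its own control, of the protein-coding genes of the Cyp2 cluster in their order along chromosome 7 (spacing not to scale); filled symbols passed edgeR's test and open symbols did not, and genes without a symbol had too few reads. Cyp2b9, Cyp2b13, Cyp2a4 and Cyp2a22 have the highest values in the knockout, at 8.71 to 11.90, while Cyp2g1 and Cyp2a5, which lie between Cyp2a4 and Cyp2a22, are at 1.31 and 1.43.

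Cyp2a4 is female-biased in mouse liver, so lists of other sex-biased liver genes were read beside it. The female-biased list has 17 genes. In the knockout 15 could be tested and 14 rose, but 10 of the 15 passed the filter only through the knockout libraries. Those 10 could be tested only because they were high there, so the count carries no support. On high fat 8 could be tested and 5 rose, where 12.9% of all genes did. Of the 8, 3 passed the filter only through the treated libraries, so this count carries no support either. On cholic acid 6 could be tested and 2 rose, Cux2 and Prom1, where 2.27% of all genes did. Both are among the 3 that passed the filter only through the treated libraries, so they could be tested only because they were high there. Cyp17a1 and Atp6v0d2 had log2 fold changes of -2.06 and -0.76 on cholic acid with no call. After hepatectomy 9 could be tested, 1 of them only through the sham libraries, and 3 fell, where 14.3% of all genes did. Sult2a1, a sulfotransferase of steroids and bile acids, had 9 reads in the wild-type libraries together and 83670 in the knockout, a ratio of 7017 with a 95% counting interval of 3696 to 15345. Ntrk2, a neurotrophin receptor, passed the filter only through the high fat libraries, with 12 reads in the chow libraries together. Its log2 fold change was 7.36 ± 0.75 (SE; edgeR adjusted p 0.00460), and its ratio of pooled reads was 169 with a 95% counting interval of 96.8 to 328. The transcription factor Cux2 rose by 5.68 ± 1.02 on cholic acid and fell by 3.65 ± 0.41 after hepatectomy (SE; edgeR adjusted p 0.0200 and 0.000470). Prom1 rose by 4.68 ± 0.63 on cholic acid and Acot3 fell by 1.88 ± 0.36 after hepatectomy (SE; edgeR adjusted p 0.00903 and 0.00593).

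The male-biased list has 16 genes. In the knockout all 16 were tested and fell, where 19.4% of all genes did. Of the 16, 9 passed the filter only through the wild-type libraries. Those 9 could be tested only because they were high there, so the count carries no support. On high fat 15 of 16 fell, where 11.1% of all genes did, and on cholic acid 12 of the 15 tested fell, where 2.5% did. In each of these comparisons 1 gene passed the filter only through the control libraries. The list was chosen with earlier results of these data known, so its counts describe the data and carry no independent support. After hepatectomy 7 of the 15 tested fell and 1 rose, where 14.3% of all genes fell. The urinary protein genes Mup7 and Mup1 had log2 fold changes of -11.90 ± 0.96 and -10.91 ± 0.31 in the knockout (SE; edgeR adjusted p 4.01e-05 and 1.16e-07); Mup genes are near-identical copies and uncertain as single genes. Moxd1 and Serpina1e had log2 fold changes of -10.62 ± 0.42 and -5.43 ± 0.32 on high fat (SE; edgeR adjusted p 0.000460 and 0.00102), where Moxd1 passed the filter only through the chow libraries. Selenbp2 and Hsd3b5 had log2 fold changes of -6.07 ± 0.58 and -5.98 ± 0.58 on cholic acid (SE; edgeR adjusted p 0.00256 for each). After hepatectomy Cyp4a12a fell by 1.41 ± 0.17 and Elovl3 rose by 1.27 ± 0.28 (SE; edgeR adjusted p 0.000782 and 0.0106). These sex-biased lists share Cyp2b9 and Cyp2b13 with the list of cluster neighbours.

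Cyp2a5 is known to answer to CAR, the oxidative stress factor Nrf2, HNF4 and other factors, and 15 genes for such factors were read. In the knockout 2 rose and 4 fell, which is near the 40.4% of all genes that changed, among them the gene of CAR, Nr1i3, by 1.04 ± 0.13, and Ppara by 0.98 ± 0.21 (SE; edgeR adjusted p 0.000370 and 0.00594). On cholic acid 2 rose, where 2.27% of all genes did, the coactivator Ppargc1a by 1.08 ± 0.18 and the xenobiotic receptor gene Nr1i2 by 0.68 ± 0.15 (SE; edgeR adjusted p 0.0164 and 0.0443). On high fat 1 rose and 2 fell, near the 24% of all genes that changed, with Ahr down by 1.09 ± 0.28 and Hnf4a by 0.68 ± 0.14 (SE; edgeR adjusted p 0.0408 and 0.0233). After hepatectomy 2 rose and 4 fell, where 30.7% of all genes changed, with Ppargc1a down by 1.74 ± 0.38 and Nr1i2 by 0.73 ± 0.12 (SE; edgeR adjusted p 0.0108 and 0.00363).

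Of 6 Nrf2 targets, 3 rose on cholic acid, where Cyp2a5 also rose and 2.27% of all genes did, with the quinone reductase Nqo1 up by 2.52 ± 0.25 and the glutathione synthesis gene Gclc by 1.68 ± 0.25 (SE; edgeR adjusted p 0.00256 and 0.0113). In the knockout 3 rose and 1 fell, where 21% of all genes rose and 19.4% fell, with Hmox1, which degrades heme, up by 2.96 ± 0.32 and Srxn1 by 0.81 ± 0.15 (SE; edgeR adjusted p 0.000194 and 0.00296). On high fat, where Cyp2a5 fell, 2 rose against 12.9% of all genes, Nqo1 by 1.34 ± 0.14 and Srxn1 by 0.52 ± 0.14 (SE; edgeR adjusted p 0.00524 and 0.0458). After hepatectomy 1 rose, near the 16.4% of all genes, Gclc by 0.64 ± 0.20 (SE; edgeR adjusted p 0.0449).

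P450 enzymes need electrons and heme, and 5 genes of that supply were read. In the knockout 3 rose, where 21% of all genes did, with the cytochrome b5 reductase Cyb5r3 up by 1.25 ± 0.10 and its partner Cyb5a by 0.59 ± 0.12 (SE; edgeR adjusted p 3.12e-05 and 0.00465). After hepatectomy 2 fell, where 14.3% of all genes did, the P450 reductase Por by 1.09 ± 0.25 and Cyb5r3 by 0.72 ± 0.10 (SE; edgeR adjusted p 0.0131 and 0.00119). On cholic acid Cyb5r3 fell by 0.99 ± 0.18 (SE; edgeR adjusted p 0.0209). On high fat Por came closest among the 5, at -0.49 ± 0.16 (SE; edgeR adjusted p 0.0769).

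Cyp2a5 is made mainly by pericentral hepatocytes, and genes of that zone were read for that reason. On high fat 7 of 8 fell, where 11.1% of all genes did, with Cyp1a2 down by 2.40 ± 0.12 and the glutamate transporter Slc1a2 by 1.96 ± 0.16 (edgeR adjusted p 0.000776 and 0.00306; SE), while 4 of 6 periportal genes rose against 12.9% of all genes, Hsd17b13 by 1.07 ± 0.16 and Hal by 0.84 ± 0.18 (edgeR adjusted p 0.0111 and 0.0258; SE). On cholic acid, where Cyp2a5 rose, 4 of 8 pericentral genes fell against 2.5% of all genes, among them Cyp2e1 by 1.26 ± 0.21 and Glul by 1.20 ± 0.19 (edgeR adjusted p 0.0150 and 0.0141; SE), and 1 of 6 periportal genes, Hal, rose by 1.17 ± 0.23 (edgeR adjusted p 0.0284; SE). In the knockout the pericentral counts were near the 21% of all genes that rose and 19.4% that fell: 2 of 8 rose, Rgn by 1.25 ± 0.10 and Oat by 0.93 ± 0.16 (edgeR adjusted p 3.49e-05 and 0.00234; SE), 2 fell, and 4 of 6 periportal genes fell, with Hal down by 2.17 ± 0.12 and Gls2 by 1.32 ± 0.11 (edgeR adjusted p 4.65e-06 and 5.98e-05; SE). The periportal gene Hsd17b13 went the other way there, up by 0.87 ± 0.13 (edgeR adjusted p 0.00113; SE). After hepatectomy, where 16.4% of all genes rose and 14.3% fell, 1 of 8 pericentral genes rose and 3 fell, Oat up by 1.19 ± 0.19 and Slc1a2 down by 0.94 ± 0.22, and 5 of 6 periportal genes fell, Hal by 0.66 ± 0.09 (edgeR adjusted p 0.00241, 0.0135 and 0.00130; SE).

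Genes whose pattern over the 26 libraries was much like that of a member were found by Pearson's r of log2(CPM + 1), each value taken relative to the mean of its own experiment, among 11345 genes. For Cyp2a4 these included the lipoprotein receptor gene Vldlr (0.94) and the bile acid exporter gene Abcc4 (0.90). For Cyp2a5 they were the bilirubin glucuronosyltransferase gene Ugt1a1 (0.91), Adssl1 (0.86) and the retinoic acid hydroxylase gene Cyp26a1 (0.86). For Cyp2a22 they were the fatty acid transporter gene Cd36 (0.95), the aldehyde dehydrogenase gene Aldh1b1 (0.95) and Crybg2 (0.95). For Cyp2a12, whose level moved least, r reached 0.76 for Cdk11b, 0.75 for Plod1 and 0.72 for Malat1. Between members, r was 0.80 for Cyp2a4 with Cyp2a22 and 0.67 for Cyp2a4 with Cyp2a5, and at most 0.44 for the other pairs. The libraries of a group share their treatment and depth, so these values describe the pattern and carry no test.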

How the data were processed

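Poly(A) RNA of 26 mouse samples was sequenced with a stranded kit, per the labels' protocols. The authors deposited 1 table of raw read counts per gene, in which the 26 sample columns were mapped to samples by title. Per the submitters' processing notes, bcl2fastq 2.17.1.14, Trimmomatic, STAR 2.4.2a, Picard 1.119 and HTSeq were used with GRCm38. The annotation, the counting options and the use of strand are not given in the sources used here. The 5 summary rows that name no gene were left out of library sizes: not unique reads were 16.6% to 44.1%, ambiguous reads 1.02% to 3.73% and reads on no gene 3.19% to 5.37%. Of 47643 gene identifiers, 47224 were matched to symbols, 39106 of them with the version.

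Each comparison was fitted on its own groups in R 4.3.3 with edgeR 4.0.16 (filterByExpr with a minimum count of 10 and minimum total of 15, TMM scaling, quasi-likelihood F test), with Benjamini-Hochberg adjustment over all genes tested and a threshold of 0.05. Differences of effects are contrasts of 4 groups. Levels are CPM on 1 TMM scale over all libraries. The fit was tested on simulated counts. Shares were compared with exact two-sided permutation tests. Total gene counts of 13949059 to 70367874 set the precision, and the floor is 3 counts. Alternatives were DESeq2 1.42.0 size factors and Wald test, no filter, all libraries in 1 fit, a replicate block, and each library left out.

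The members were chosen by name, and the members and lists with earlier results of these data known. Counts of list genes set beside the share of all genes therefore describe these data and carry no independent support. From each list the text names the called genes with the largest change in each comparison, at most 2, by a rule set with the design. Promoters came from RefSeq tables (GRCm38.p6) and transcripts from GENCODE M21. One of the genes with a pattern like that of a member is not reported here.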

Additional observations from a re-analysis of the deposited data

Results flagged for a closer look

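The differences between the effects of 2 treatments on 1 gene that passed edgeR's test of the difference itself are given here, on the log2 scale and adjusted over all genes. They number 13 of 24. Strain, age, feeding and tissue also vary between experiments and cannot be told apart from the treatments.

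For Cyp2a4, the knockout effect exceeded that of hepatectomy by 11.29 ± 0.84 and that of high fat by 5.26 ± 0.62 (SE; edgeR adjusted p 1.20e-06 and 0.000315). The hepatectomy effect minus that of cholic acid was -9.81 ± 2.03, and minus that of high fat -6.06 ± 1.08 (SE; edgeR adjusted p 0.00868 and 0.00276). In both of the latter, Cyp2a4 fell after hepatectomy and was higher in every treated library of the other experiment.

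For Cyp2a5, the knockout effect exceeded that of hepatectomy by 2.71 ± 0.24 and that of high fat by 2.49 ± 0.36 (SE; edgeR adjusted p 5.03e-06 and 0.00110). The hepatectomy effect minus that of cholic acid was -3.57 ± 0.55, and the high fat effect minus that of cholic acid -3.35 ± 0.71 (SE; edgeR adjusted p 0.00158 and 0.0265). The last was not called without any 1 of the 4 hepatocyte libraries or without flox chow library 2 (-3.70 to -2.98, edgeR adjusted p 0.0510 to 0.135).

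For Cyp2a22, the knockout effect exceeded that of cholic acid by 9.28 ± 0.91, that of hepatectomy by 7.85 ± 0.60 and that of high fat by 3.34 ± 0.89 (SE; edgeR adjusted p 6.21e-05, 1.42e-06 and 0.0280). The difference from high fat was not called without any 1 of the 3 wild-type libraries, chow hepatocyte library 2 or high fat library 2 (2.47 to 3.53, edgeR adjusted p 0.0627 to 0.198). The hepatectomy effect minus that of high fat was -4.53 ± 0.44, with both effects upward (SE; edgeR adjusted p 0.000107). The high fat effect exceeded that of cholic acid by 5.99 ± 0.90 (SE; edgeR adjusted p 0.00767), and was not called without chow hepatocyte library 1 (5.47, edgeR adjusted p 0.0607).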

How the results depend on the processing

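The cause of each change below was not tested. Without the filter, the cholic acid comparison called 955 genes and 2 Cyp2a genes, with Cyp2a4 at 7.25, and Cyp2a12 in the knockout was no longer called at 0.30. DESeq2's Wald test called 109 genes for TCPOBOP and 1445 for cholic acid, with 2 Cyp2a genes and Cyp2a4 called at 7.30, and lost Cyp2a5 on high fat at -1.07 and the Cyp2a4 and Cyp2a5 sum at -1.04. With all 26 libraries in 1 fit, 9 genes were called for TCPOBOP, 1735 for high fat and 3132 for cholic acid. Of the Cyp2a genes that fit called 1 on high fat and 2 on cholic acid, where Cyp2a4 was called at 7.26. It lost Cyp2a12 in the knockout at 0.27, Cyp2a4 after hepatectomy at -2.56, and on high fat Cyp2a4 at 3.50, Cyp2a5 at -1.03, Cyp2a12 at 0.41 and the sum at -1.01.

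The labels do not say whether replicate numbers pair the samples. The correlation of same-numbered libraries was -0.209 to 0.00559 in the knockout, where no treated library matched its own number best. After hepatectomy it was -0.0737 to 0.120. On cholic acid it was 0.0893 to 0.158 and each treated library matched its own number best, so the numbers may pair samples there. It was 0.138 for high fat and 0.133 for TCPOBOP, where 2 numbers give 1 value by construction and cannot decide. With a replicate block, Cyp2a12 in the knockout stood at 0.29 and was not called, and on cholic acid 2 Cyp2a genes were called, with Cyp2a4 at 6.88. The other calls of the 4 genes were as without the block.

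Leaving out 1 library at a time gave these ranges; where 1 library remained in a group, it was assumed to vary like the other group. For TCPOBOP, 0 to 1233 genes and 0 to 2 Cyp2a genes were called, with Cyp2a4 at -0.77 to 2.08, Cyp2a5 at -0.0788 to 1.31, Cyp2a12 at -0.67 to 0.17 and the sum at -0.0800 to 1.31. In the knockout Cyp2a12 ranged from 0.25 to 0.33. After hepatectomy 2554 to 4217 genes were called, with Cyp2a4 at -3.11 to -1.98 and Cyp2a12 at -0.0805 to 0.0689. On high fat 1141 to 2644 genes and 2 to 3 Cyp2a genes were called, with Cyp2a4 at 2.91 to 4.51, Cyp2a22 at 5.63 to 7.002, Cyp2a5 at -1.41 to -0.61, Cyp2a12 at 0.33 to 0.43 and the sum at -1.38 to -0.58. On cholic acid 189 to 1345 genes and 0 to 1 Cyp2a genes were called, with Cyp2a4 at 4.48 to 7.80, Cyp2a5 at 1.77 to 2.68, Cyp2a12 at -0.36 to 0.0161, Cyp2a22 at -0.60 to 0.90 and the sum at 1.78 to 2.69.

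The high fat and cholic acid effects differed in 0 to 2 Cyp2a genes. The Cyp2a12 difference between hepatectomy and cholic acid ranged from -0.00109 to 0.37, and the Cyp2a5 difference between hepatectomy and high fat from -0.69 to 0.11. Cyp2a4, Cyp2a5 and Cyp2a22 in the knockout, Cyp2a5 and Cyp2a22 after hepatectomy and Cyp2a22 on high fat kept their direction and call under every alternative run. Depth limits Cyp2a4 and Cyp2a22 in the control groups with few reads.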
